A study of Mus musculus with 24 samples.

Results

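Adult mouse sensory neurons regrow axons in a dish after dissociation and in the animal after their peripheral axon is cut, and these 2 regrowth states were compared across all genes. The comparison set the 3 libraries collected 36 h after plating against the 3 libraries of ganglia after a peripheral lesion, which are 6 of the 24 libraries of the series. Libraries were taken by the group named in the sample labels, and no measured value was used to choose them. The series holds 8 groups of 3 libraries from mouse dorsal root ganglia. The other 6 groups are adult cultures at 6, 12 and 24 h, adult ganglia after sham surgery, and ganglia of embryos.

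Both groups came from adult mice, with no genetic change named, and both are labelled as dorsal root ganglion neurons. For the cultures, lumbar ganglia were dissociated and plated sparsely on laminin in Neurobasal-A medium with B-27, with no operation named. The operated animals gave L4 and L5 ganglia, with no time after plating. Strain, sex, age in weeks, the nerve that was cut and the interval between lesion and collection are not given in the labels. One protocol text, which names cell sorting, is attached to every library, and whether operated ganglia were sorted is not stated. The libraries at 36 h carry the numbers 348, 349 and 350, and those after lesion carry 74, 75 and 124. Preparation, library series and regrowth state therefore cannot be told apart. Cultures at 6 h (libraries 339, 340 and 341) and ganglia after sham surgery (69, 70 and 123) differ in the same preparation and share no library with the main pair, and they are given beside it.

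Dorsal root ganglia hold the cell bodies of sensory neurons wrapped by satellite glia, together with Schwann cells, vessels, connective tissue and resident macrophages. Cutting the peripheral axon switches on a growth programme led by transcription factors such as Atf3, Jun and Sox11, and lowers many genes for ion channels and transmission. Dissociation cuts the same axons, and in addition removes the tissue around the neurons and exposes the cells to medium, plastic and enzymes. Neuron classes in the ganglion are told apart by their genes: nonpeptidergic nociceptors carry Mrgprd, peptidergic nociceptors carry Calca, and large fibres carry neurofilament genes.

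Recovered depth was 7078401 to 12257636 reads per library at 36 h, 7451955 to 21012486 after lesion, 3648071 to 22545933 at 6 h and 12731657 to 21840745 after sham surgery. Pearson correlations of log2 values across 15224 genes were 0.960 to 0.982 among the 36 h libraries, 0.986 to 0.990 among the lesion libraries and 0.851 to 0.894 between them. Of the 36 h libraries, replicate 2 had the lowest depth. Values below are the authors' normalized values, which are reads divided by 1 factor per library, so they compare libraries for 1 gene but not different genes. Differences are 36 h culture minus lesion on log2(value + 1), with the standard error (SE) and the Benjamini-Hochberg adjusted p of limma, called at 0.05. Nothing says whether libraries of a group came from separate animals or cultures, so each p measures only the spread between these libraries, which may be technical.

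Cultured ganglion cells at 36 h held more RNA for matrix proteases, chemokines, interferon response, stress response, ribosomal proteins and the cell cycle than ganglia after lesion. They held less for neuron class receptors, ion channels and synaptic release, and less for myelin, macrophage, fibroblast and blood genes. General neuron genes were lower as well. Scaled to their level, release genes had 20 higher and 13 lower, and calcium channel genes 7 and 4. On that scale sodium channel genes had 4 higher and 4 lower, and potassium channel genes 12 and 22. There 71.6% of all genes were higher and 7.88% lower. The higher share of each of these lists lay below that of all genes, and the lower share above it. The injury marker Atf3 did not pass the test of a difference, while Sprr1a, Gap43 and Npy were higher in the animal.

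The table lists 20782 genes, of which 14738 reached a value of 10 in at least 3 of the 6 libraries and were tested, and 1587 were at 0 in all 6. Of the genes tested, 4327 were higher in 36 h culture (29.4%) and 4634 were lower (31.4%), which is 60.8% in all. The 3 values at 36 h and the 3 after lesion did not overlap for 9969 genes (67.6%), so a single gene that passes or does not overlap is common here. Differences of at least 8-fold were rarer, with 133 called genes higher and 337 lower. The median difference of all genes was -0.02. General neuron genes were themselves lower at 36 h, and dividing each library by their level moved the median of all genes to 0.96. The split then became 10548 higher (71.6%) and 1161 lower (7.88%), and counts on that scale are given below as counts with neuronal scaling.

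**Figure D1:**
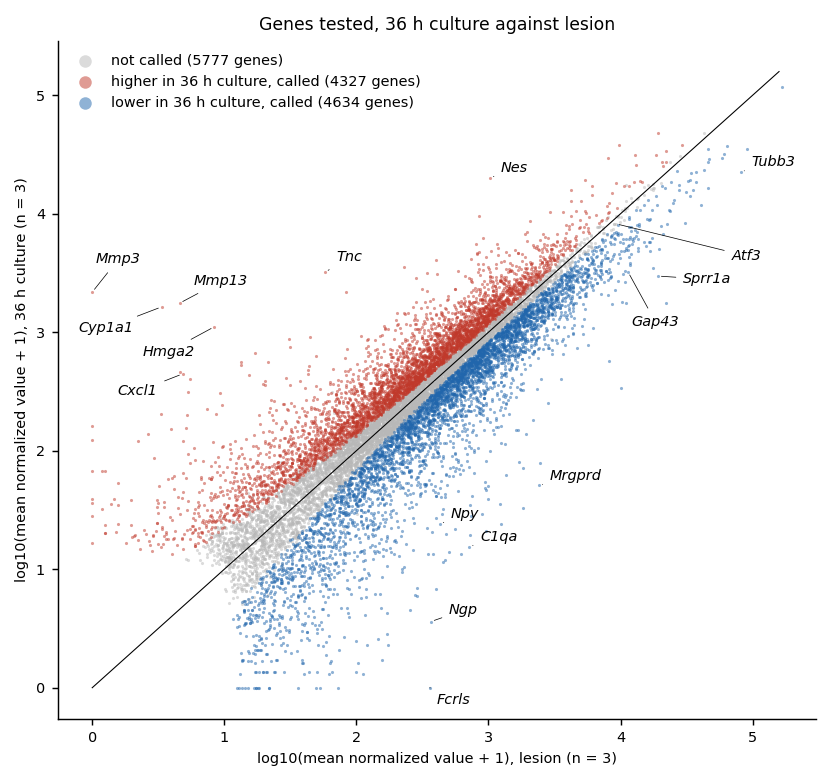
Mean normalized value + 1 of each tested gene after lesion (x axis, log10) and in 36 h culture (y axis, log10), with 3 libraries per group. Red and blue points are the 4327 higher and 4634 lower genes, the line marks equal values, and Mmp3 lies at 0 after lesion while Fcrls lies at 0 at 36 h.

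The libraries after lesion carried more RNA of blood, immune, connective and myelinating cells than the cultures. Of 25 macrophage and microglia markers tested, 17 were lower in culture and 3 higher, with a median difference of -2.26 beside -0.02 for all genes. Their summed value was 1582 to 2021 at 36 h and 5811 to 8018 after lesion. Fibroblast and perineurial markers were lower for 16 of 19 (median -2.57), red blood cell markers for 9 of 9 (median -3.48) and myelinating Schwann cell markers for 15 of 20 (median -2.16). Some macrophage, fibroblast and red blood cell markers reached the minimum only through the lesion libraries. Leaving out any 1 lesion library left 21 macrophage markers tested, with 12 or 13 lower and a median of -1.6 to -1.8. It left 7 red blood cell markers, all lower, and 18 fibroblast markers, 15 of them lower. With neuronal scaling, the lower members of the 4 lists numbered 16, 14, 8 and 13. In bulk RNA, fewer cells of a type and less RNA per cell cannot be told apart.

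Genes of tissue macrophages stood at the far lower end. Fcrls, an Fc receptor-like gene of microglia and resident macrophages, was at 418, 314 and 345 after lesion and at 0 in each 36 h library. Against a floor of 3 reads over the culture group it was at least 324-fold lower in culture. The complement gene C1qa was at 14.0, 9.3 and 20.3 at 36 h against 923, 466 and 755 after lesion (log2 difference -5.53, SE 0.30, limma adjusted p = 5.72e-08). C1qb (-5.32) and C1qc (-5.71), the other chains of the same complex, followed. Cd163, a scavenger receptor, was at 2.16, 0 and 0 in culture and at 22.4, 174 and 269 after lesion, where the first library stood well below the other 2. The monocyte chemokine receptor Ccr2 (-6.39), the coagulation factor subunit F13a1 (-5.89), the microglial membrane protein Tmem119 (-6.41) and the lipid enzyme Pla2g2d (-6.03) were also lower. Most of these 9 genes were named partly because their groups did not overlap, as in 67.6% of all genes. Not all such markers were low: the endotoxin co-receptor Cd14 was at 326, 366 and 257 in culture against 94.4, 91.8 and 105 after lesion (log2 difference 1.68, SE 0.17, limma adjusted p = 5.27e-06), and the lysosomal Cd68 was higher by 1.10.

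Neutrophil and blood genes followed the same direction. Ngp, a neutrophil granule protein, was at 3.23, 0 and 4.62 in culture against 265, 516 and 315 after lesion (log2 difference -6.93, SE 0.56, limma adjusted p = 1.13e-06). S100a8 (-4.20) and S100a9 (-4.64), which form calprotectin, were lower too. The globin genes Hba-a2 (-4.74) and Hbb-bs (-3.71) belong to families of near-identical copies, so their single values are uncertain. The red cell anion exchanger Slc4a1 had 1 read in all 3 cultures and 300 after lesion, a ratio of 220.1 with a 95% counting interval of 39.2 to 8721. T cell, B cell and neutrophil markers were lower for 6 of 8 tested. Leaving out any 1 lesion library gave 2, with as few as 3 markers then reaching the minimum.

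Connective tissue and myelin genes split by gene. The Wnt antagonist Sfrp4 was at 17.2, 14.0 and 28.6 in culture and 550.3, 877 and 1467 after lesion (log2 difference -5.47, SE 0.34, limma adjusted p = 2.28e-07). The matrix proteins Mfap4 (-5.74) and Fmod (-5.55) and the carrier Slc13a4 (-5.93) were lower as well. H19, an imprinted non-coding RNA, was at 8.62, 41.9 and 45.2 in culture and 913, 1052 and 3538 after lesion, with the third lesion library far above the others. Of the myelinating Schwann cell markers, Fa2h, which makes hydroxylated myelin lipids, was at 15.1, 17.1 and 6.46 against 511, 586 and 409 (log2 difference -5.26, SE 0.32, limma adjusted p = 1.03e-07). Ncmap (-5.15) and Mag (-4.52) were lower, whereas the gap junction gene Gjb1 (1.70) and the nodal adhesion gene Gldn (1.16) were higher in culture. The smooth muscle actin Acta2 was lower (-2.92), while Cspg4, the NG2 proteoglycan of pericytes and glia, was higher (1.67). Fbln2, a fibulin of connective tissue, was higher by 1.49.

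Endothelial markers ran the other way, with 17 of 22 higher in culture, 1 lower and a median of 1.36. Their summed value was 10872 to 14540.0 at 36 h and 5305 to 5694 after lesion. Pecam1, an adhesion molecule of vessel walls, was at 1913, 1543 and 1339 against 295, 337 and 284 (log2 difference 2.37, SE 0.13, limma adjusted p = 6.71e-08). The endothelial cadherin Cdh5 differed by 2.37 and Plvap, a protein of endothelial diaphragms, by 2.62. Plvap had a mean of 85.6 at 6 h, 264 at 12 h and 795 at 24 h. Of 12 repair and non-myelinating Schwann cell markers tested, 7 were higher and 3 lower (median 1.35). With any 1 of the 36 h libraries left out, 11 were tested and the median was 0.32 to 0.33, and without lesion replicate 2 only 1 was lower. The summed value, 31620.0 to 33316 at 36 h, overlapped that of 33275 to 35839 after lesion. In this list the neurotrophic factor Gdnf (5.39), the growth factor Btc (4.84) and the membrane protein Emp1 (3.36) were higher. Satellite glia markers were mixed, with 4 of 13 higher, a share near the 29.4% of all genes, and 7 lower. With neuronal scaling 6 were higher and 1 lower, where 71.6% of all genes were higher and 7.88% lower. The lipid carrier Fabp7 was lower (-2.97), and the filament gene Gfap (2.10) and the glial transcription factor Sox10 (1.02) were higher.

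Neuronal markers were present in every library, as the labels say, but at lower levels in culture. The 22 general neuron genes summed to 149290.0 to 198050.0 at 36 h, 364290.0 to 405820.0 after lesion, 253360.0 to 295610.0 at 6 h and 405980.0 to 440480.0 after sham surgery. Of these genes 19 were lower and 0 higher (median -0.94), and the scale built on their level left 7 lower and 7 higher. That scale sets the mean of the same 22 genes, so the even split is no result. They include the release genes Snap25, Syp and Syt1 and the sodium channel gene Scn9a, whose scaled values are not independent of it. Neuron-specific tubulin Tubb3 was at 21514, 20618 and 25583 against 90164, 72352 and 81226 (log2 difference -1.85, SE 0.11, limma adjusted p = 8.33e-08). How far the changed mix of cells enters the differences of other genes was not tested.

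**Figure D2:**
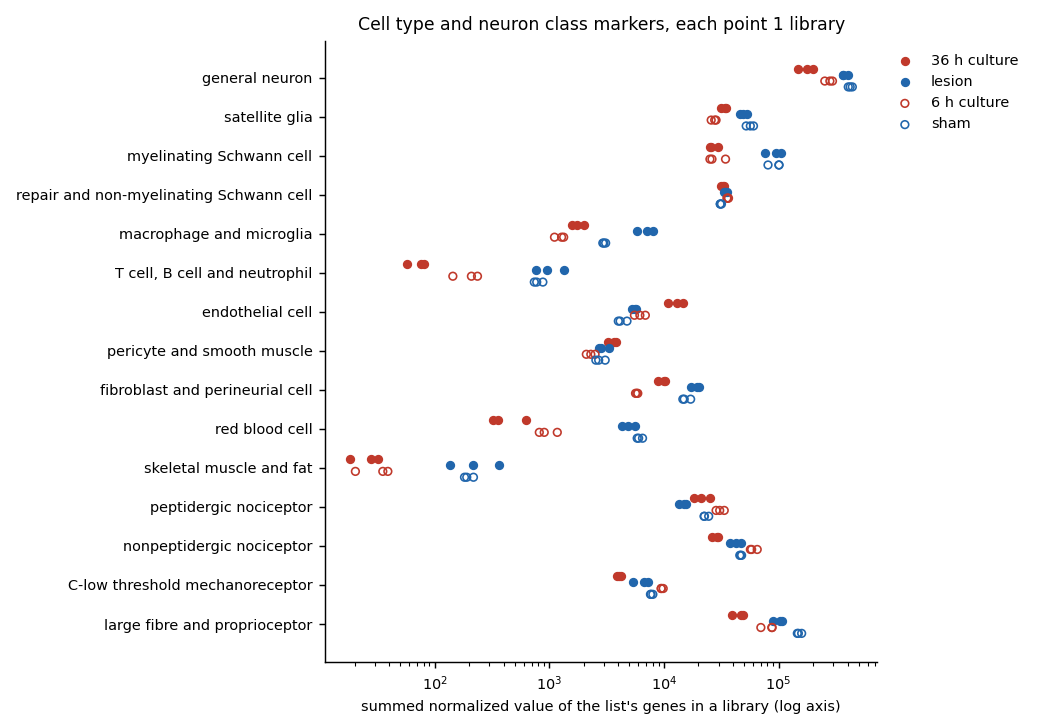
Summed normalized value of each marker list (rows) in each library (points, log axis) for 36 h culture and lesion (filled) and for 6 h culture and sham surgery (open). General neuron, large fibre, myelin, immune and blood lists lie lower in culture at both times, the peptidergic list lies higher in culture at both times, and endothelial markers at 36 h lie above the other groups.

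Genes for breaking down matrix and for chemokines stood at the far higher end. Mmp3, a matrix metalloproteinase (stromelysin), was at 1874, 2397 and 2264 in the 3 cultures and at 0 in all 3 lesion libraries. Against the floor of 3 reads over the lesion group it was at least 2607-fold higher in culture. Mmp13, a collagenase, was at 1678, 2284 and 1308 against 6.19, 1.67 and 2.89 (log2 difference 8.67, SE 0.34, limma adjusted p = 8.02e-09). Both were also near 0 after sham surgery, at means of 0 and 5.35. In culture Mmp3 had means of 502, 1126 and 1910.0 at 6, 12 and 24 h. The list of matrix proteases and their inhibitors had 23 of 31 tested genes higher and 5 lower (median 1.36). Members such as Mmp3 reached the minimum only through the culture libraries, and leaving out any 1 library gave 17 to 23 higher, with as few as 27 tested. The inhibitor Timp1 was among the higher (4.67), and the plasminogen activator Plau was lower (-1.12), the latter not called after scaling to neuronal genes (-0.13).

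Of 31 chemokine and cytokine genes tested, 23 were higher in culture and 5 lower, with a median of 2.54. With any 36 h library left out, 13 were higher and the median was 0.96 to 1.14, since as few as 22 genes then reached the minimum. Genes such as Cxcl3 passed that minimum only through the culture libraries, so the count describes the genes tested and no more. Cxcl1, a neutrophil attractant, was at 369, 552 and 414 in culture and 9.29, 1.67 and 0.578 after lesion (log2 difference 6.97, SE 0.56, limma adjusted p = 1.39e-06). Its relatives Cxcl2 (6.68) and Cxcl5 (6.25) differed as widely, and Cxcl3, at 0 in all lesion libraries, was at least 190.4-fold higher. Cytokines that signal through gp130 were included: Il11 was at 290.0, 326 and 328 against 6.19, 1.67 and 5.2 (log2 difference 6.00, SE 0.37, limma adjusted p = 1.23e-07), Lif differed by 5.30 and Il6 by 4.81. Cntf, a gp130 cytokine of Schwann cells, was lower, at 167, 161 and 127 against 827, 743 and 505 (log2 difference -2.16, SE 0.18, limma adjusted p = 1.40e-06). Ccl2, a monocyte attractant picked after its values were seen, differed by 4.87, and the eosinophil attractant Ccl11 by -2.60. The macrophage markers described above were lower in the same libraries, and their part in these levels was not tested.

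Other genes at the top were of several kinds. Cyp1a1, a cytochrome P450 known as a target of the aryl hydrocarbon receptor, was at 2033, 1918 and 962 in culture against 3.1, 1.67 and 2.31 after lesion (log2 difference 8.88, SE 0.30, limma adjusted p = 2.92e-09). It was already at a mean of 1941 at 6 h. Hmga2, a chromatin protein of embryonic and dividing cells, was at 1088, 1245 and 1002 against 15.5, 5.01 and 1.73 (log2 difference 7.42, SE 0.52, limma adjusted p = 1.70e-06), after means of 54.2, 205 and 747 at the earlier times. The epidermal growth factor family member Ereg was at 0 in all lesion libraries and at least 149.5-fold higher in culture. Its relative Areg had 136 reads in culture and 3 after lesion, a ratio of 61.8 with a 95% counting interval of 20.7 to 303.4. The hepatocyte growth factor receptor Met differed by 4.68. Igf1 (-3.04) and Igf2 (-3.48), the insulin-like growth factors, were lower in culture.

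Some genes of the higher groups hold a short motif in their promoter, and a few are printed to show it. They are the 120 bases around the match within the 250 bases before the gene start, from RefSeq on GRCm38.p6, read 5′ to 3′ on the gene's strand with matches on either strand in capitals. The interferon-type element, GAAA repeated after 2 free bases, was found in 11 of 22 interferon response genes with a promoter entry, against 3.16% of 10904 tested genes. The stretches of Isg15 (chr4:156200826-156200945, minus strand), Ifit3 (chr19:34583335-34583454, plus) and Cxcl10 (chr5:92349020-92349139, minus) are shown.
Isg15: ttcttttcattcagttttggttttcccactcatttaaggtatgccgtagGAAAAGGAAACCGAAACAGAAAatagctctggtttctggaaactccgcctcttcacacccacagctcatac
Ifit3: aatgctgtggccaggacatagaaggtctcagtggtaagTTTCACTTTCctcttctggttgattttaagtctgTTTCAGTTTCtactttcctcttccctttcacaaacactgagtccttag
Cxcl10: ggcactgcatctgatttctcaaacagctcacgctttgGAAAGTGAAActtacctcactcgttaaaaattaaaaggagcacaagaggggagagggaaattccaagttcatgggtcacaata

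The kappaB-type element, GGG and TTTCC with 2 free bases between, was in 4 of 20 chemokine and cytokine genes, against 1.79% of all, with 2 matches each in Cxcl1 (chr5:90891110-90891229, plus) and Cxcl2 (chr5:90903756-90903875, plus). The AP-1 element TGANTCA, the site of Fos and Jun proteins, was in 7 of 21 matrix protease and inhibitor genes, against 5.77% of all, and in 1 of 28 immediate early genes (3.57%). It is shown for Mmp3 (chr9:7445702-7445821, plus) and Mmp13 (chr9:7272394-7272513, plus).
Cxcl1: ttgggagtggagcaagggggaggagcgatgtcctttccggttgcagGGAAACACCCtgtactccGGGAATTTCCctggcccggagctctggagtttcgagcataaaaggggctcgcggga
Cxcl2: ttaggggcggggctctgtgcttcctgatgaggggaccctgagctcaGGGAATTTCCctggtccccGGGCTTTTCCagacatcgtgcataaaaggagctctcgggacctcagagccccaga
Mmp3: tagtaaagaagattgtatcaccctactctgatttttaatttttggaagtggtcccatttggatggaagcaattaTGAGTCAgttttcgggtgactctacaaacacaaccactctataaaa
Mmp13: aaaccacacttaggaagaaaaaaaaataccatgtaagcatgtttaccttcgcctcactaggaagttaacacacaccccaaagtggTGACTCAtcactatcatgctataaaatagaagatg

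The endoplasmic reticulum stress element, CCAAT and CCACG with 9 free bases between, was in 9 of 19 genes of the unfolded protein response, against 0.156% of all, including Hspa5 (chr2:34771970-34772089, plus) and Calr (chr8:84847025-84847144, minus). TGATGNAA, the core of the element bound by Atf4, was in 7 of 25 genes of the integrated stress response, against 2.48% of all, with 2 matches in Slc7a11 (chr3:50443614-50443733, minus). Matches of different motifs among these 5 shared bases in 3 tested genes, 0 of them in the lists searched, and a match describes letters only. List members were counted whether or not they were tested or called, and the lists hold known genes of each pathway. These shares are therefore no test of the genes that were higher in culture.
Hspa5: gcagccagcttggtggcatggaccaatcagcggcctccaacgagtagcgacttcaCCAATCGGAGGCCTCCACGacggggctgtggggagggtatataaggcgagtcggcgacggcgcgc
Calr: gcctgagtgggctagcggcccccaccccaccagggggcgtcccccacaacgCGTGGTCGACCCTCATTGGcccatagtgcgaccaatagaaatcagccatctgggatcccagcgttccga
Slc7a11: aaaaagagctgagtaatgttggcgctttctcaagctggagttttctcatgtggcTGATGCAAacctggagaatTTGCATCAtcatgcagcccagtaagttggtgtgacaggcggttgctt

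Interferon response genes were higher in culture for 25 of 28 tested and lower for 0 (median 1.91). Isg15, a ubiquitin-like protein made in response to interferon, was at 957, 975 and 858 against 157, 91.8 and 72.3 (log2 difference 3.18, SE 0.23, limma adjusted p = 4.90e-07). Rsad2, the antiviral enzyme viperin, was at 2386, 2487 and 3684 against 333, 296 and 217, and the chemokine Cxcl10 at 839.8, 575 and 765 against 135, 61.8 and 57.2. The 2 groups did not overlap for any of these genes, though the first lesion library was the highest of its group for all 3. Ifit3, picked for its promoter, differed by 2.21. Of 15 antigen presentation genes, 8 were higher in culture and 6 lower (median 0.75). The class I genes B2m (2.08) and H2-Q4 (2.69) were higher in culture, and the class II genes H2-Eb1 (-4.75) and Cd74 (-4.14), which mark professional antigen-presenting cells, were lower. H2-Q4 belongs to a family of similar class I genes, so its value is uncertain.

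Most genes of the amino acid and unfolded protein stress pathways were higher in culture. Of 34 genes of the integrated stress response and amino acid supply, 30 were higher and 0 lower (median 1.10). Leaving out a 36 h library left 33 tested, with 27 to 30 higher. The cystine transporter Slc7a11 was at 4104, 3855 and 2788 against 217, 250.5 and 221 (log2 difference 3.94, SE 0.14, limma adjusted p = 3.26e-09), the arginine transporter Slc7a3 differed by 2.35 and the pseudokinase Trib3 by 2.35. In the unfolded protein response of the endoplasmic reticulum 19 of 22 genes were higher and 1 lower (median 0.92). Its central chaperone Hspa5 was at 15810.1, 14743 and 16591 against 4289.6, 4013 and 4285 (log2 difference 1.90, SE 0.08, limma adjusted p = 1.29e-08), the disulfide isomerase Pdia6 differed by 1.62 and the lectin chaperone Calr, picked for its promoter, by 1.24. Heat shock and chaperone genes had 7 of 24 higher, a share near the 29.4% of all genes, and 4 lower. With neuronal scaling 24 were higher and 0 lower.

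Of 23 p53 target and apoptosis genes, 18 were higher and 2 lower (median 0.76). Without any 1 of the 36 h libraries 22 were tested and 15 to 17 were higher. Gdf15, a stress cytokine, was at 172, 288 and 211 against 6.97, 8.35 and 4.05 (log2 difference 4.93, SE 0.33, limma adjusted p = 2.15e-07), and the death receptors Tnfrsf10b (4.22) and Eda2r (3.47) were higher. Oxidative stress, NRF2 target and metallothionein genes were higher for 16 of 28 and lower for 6, led after Slc7a11 by the peroxidase Prdx1 (2.45) and metallothionein Mt2 (2.43). Immediate early genes were higher for 23 of 33 and lower for 1 (median 0.84). With a 36 h library left out, 31 or 32 were tested and 22 were higher. Fosl1, a Fos relative, was at 413, 539.6 and 434 against 6.19, 1.67 and 2.89 (log2 difference 6.77, SE 0.35, limma adjusted p = 4.44e-08). Fos itself was at 1206, 1040.5 and 1002 against 209.8, 145 and 136, and the matricellular gene Cyr61 differed by 2.63.

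Most ribosomal protein genes and many cell cycle genes were also higher. Cytosolic ribosomal protein genes were higher for 67 of 76 and lower for 2 (median 1.26), with Rpl11 at 243, 209 and 250.2 against 33.3, 36.7 and 63.6 (log2 difference 2.42, SE 0.25, limma adjusted p = 5.81e-06). Many of these genes have near-identical copies in the genome, so their single values are uncertain. With any 36 h library left out, 72 ribosomal genes were tested and 60 to 63 were higher. Some thus reached the minimum only through the culture libraries. Cell cycle and replication genes were higher for 25 of 46 and lower for 1 (median 0.95). Leaving out a 36 h library left 44 or 45 of them tested, with 20 to 27 higher. Ccnd1, the cyclin of the G1 phase, was at 9691, 10285 and 8885 against 915, 880.1 and 747 (log2 difference 3.51, SE 0.10, limma adjusted p = 8.79e-10), and the replication factors Uhrf1 (3.55) and Cdt1 (3.42) were higher. The proliferation marker Mki67, picked after its values were seen, was at 212, 208 and 295 against 214, 322 and 232, with overlapping groups (log2 difference -0.10, SE 0.19, limma adjusted p = 0.673), and it became 0.89 and called with neuronal scaling. In oxidative phosphorylation 9 of 66 genes were higher and 8 lower, or 60 and 0 with neuronal scaling. Higher calls there became 15 without 36 h replicate 1 and 17 without lesion replicate 3. With neuronal scaling the lists described above as mostly higher had 28 of 28 interferon, 34 of 34 integrated stress, 22 of 22 unfolded protein, 76 of 76 ribosomal, 36 of 46 cell cycle, 31 of 33 immediate early, 27 of 31 chemokine and 28 of 31 protease genes higher. On that scale 71.6% of all genes were higher, and the share of cell cycle genes was near this.

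**Figure D3:**
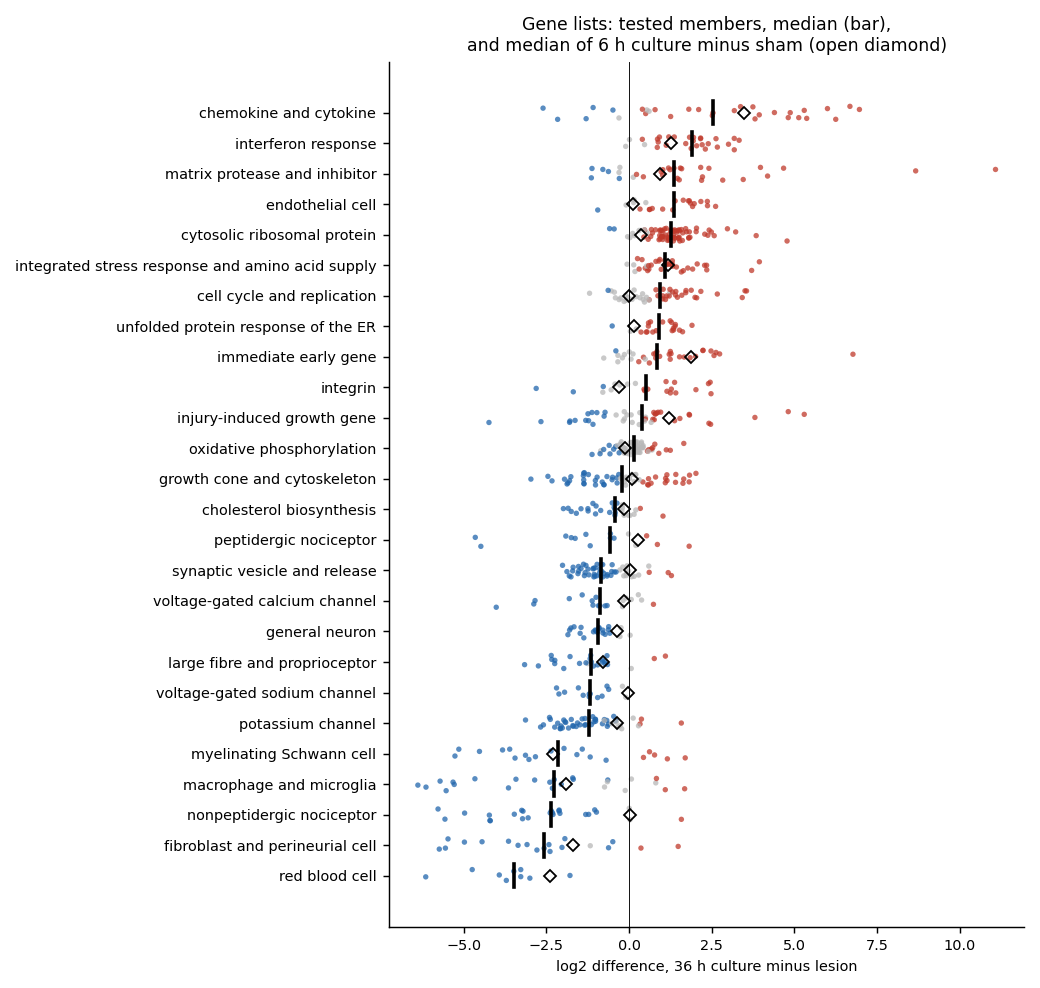
Log2 difference, 36 h culture minus lesion (x axis), of each tested member (points) of 26 gene lists (rows), red where higher, blue where lower and grey where not called. Black bars are list medians, from 2.54 for chemokines and cytokines to -3.48 for red blood cell genes, and open diamonds are the medians of the same lists in 6 h culture minus sham.

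Injury-induced growth genes, known from sensory neurons that regrow an axon, had 19 of 44 tested members higher in culture, 13 lower and 12 not called (median 0.39). These shares stand beside 29.4% higher and 31.4% lower of all genes, so the lower share is near the background. The median was 0.19 without lesion replicate 2 and 0.25 without 36 h replicate 3. With any 36 h library left out, 42 were tested and 15 to 18 were higher. With neuronal scaling 32 were higher and 4 lower, where 71.6% of all genes were higher and 7.88% lower, so the higher share is near the background. Atf3, the transcription factor used as a marker of axon injury, was at 8009.6, 7860.1 and 8823 in culture and 11051, 7089 and 9482 after lesion (log2 difference -0.14, SE 0.14, limma adjusted p = 0.391). Its groups overlapped, and both lay far above the mean of 557 after sham surgery. Without lesion replicate 2 it was called lower (-0.32), and scaled to neuronal genes it was called higher (0.85). Stat3, the signal transducer of gp130 cytokines, was at a mean of 5684 ± 451 against 5932 ± 147 (SD, n = 3 each), a difference of -0.06 that was not called and that became 0.93 and called with neuronal scaling. Jun was at 6909, 9916 and 9632 against 5744, 4063 and 4908 (log2 difference 0.84, SE 0.15, limma adjusted p = 5.27e-04), and Sox11 differed by 0.88. Stat3, Jun and Sox11 were picked after their values were seen.

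Other members were several times higher in the animal. Sprr1a, a small proline-rich protein induced in injured sensory neurons, was at 2699, 2804 and 3433 at 36 h against 23731, 14642 and 19037 after lesion (log2 difference -2.66, SE 0.16, limma adjusted p = 1.33e-07). Its culture means were 29.8 at 6 h, 247 at 12 h, 1611 at 24 h and 2979 at 36 h, against 469 after sham surgery. Gap43, a growth cone membrane protein, was at 3175, 3239 and 3299 against 13147, 9330.0 and 11649 (log2 difference -1.80, SE 0.11, limma adjusted p = 1.45e-07), and its culture means stayed between 2832 and 3666 from 6 to 36 h. Npy, a neuropeptide that appears in injured large neurons, was at 9.7, 20.2 and 39.7 against 512, 214 and 558 (log2 difference -4.24, SE 0.49, limma adjusted p = 4.30e-05). These 3 genes were also lower in culture with neuronal scaling, by log2 differences of -1.67, -0.81 and -3.27. Gap43 is itself among the 22 general neuron genes that set this scale, so its scaled value is not independent of it. On the other side stood Lif and Il6, given above, the transglutaminase Tgm1 (3.81) and the neuropeptide Adcyap1, at 10202, 8187 and 12739 against 3115, 2558 and 3048 (log2 difference 1.82, SE 0.14, limma adjusted p = 7.48e-07).

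**Figure D4:**
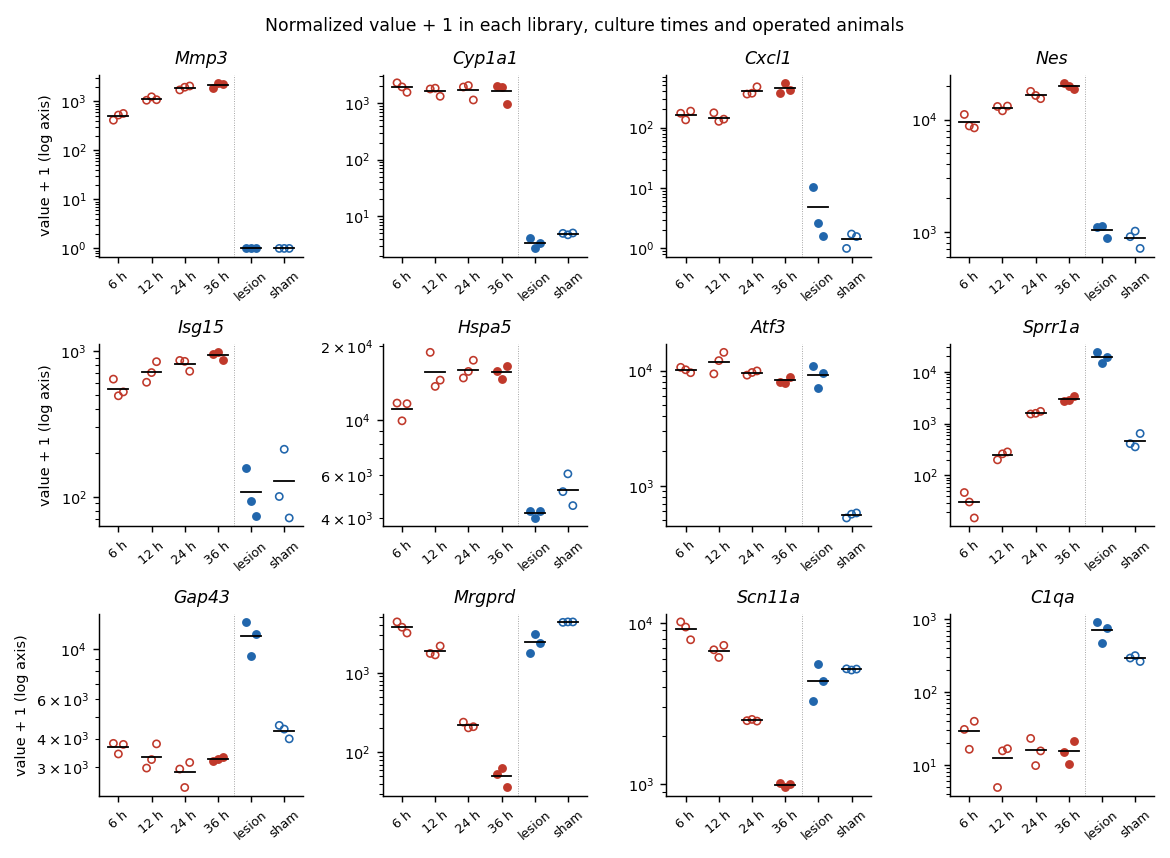
Normalized value + 1 (log axis) of 12 genes in each library at 6, 12, 24 and 36 h in culture (red) and after lesion or sham surgery (blue). Filled points are the 36 h and lesion libraries, and bars are means. Of the 12 genes plotted, values of 36 h and lesion overlap only for Atf3. Most were named for a called difference, and 67.6% of all tested genes do not overlap.

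Most genes that define classes of sensory neuron were lower in culture. Of 25 nonpeptidergic genes, 22 were lower and 1 higher, with a median of -2.35, and 16 were lower and 3 higher with neuronal scaling. Their summed value was 26300.0 to 29687 at 36 h and 37770.0 to 47074 after lesion. Some nonpeptidergic genes reached the minimum only through the lesion libraries. With any 1 lesion library left out, 21 nonpeptidergic genes were tested and 17 or 18 were lower. Mrgprd, the receptor that marks these cells, was at 52.8, 62.0 and 35.1 at 36 h against 1781, 3054 and 2393 after lesion (log2 difference -5.57, SE 0.22, limma adjusted p = 1.29e-08). Its culture means were 3765 at 6 h, 1869 at 12 h and 217 at 24 h, beside 4353 after sham surgery, so only the later cultures lay below the operated animals. The itch receptors Mrgpra3 (-5.78) and Mrgprx1 (-4.97) were lower too, within families whose similar copies make single values uncertain. Osmr, the oncostatin M receptor, was the higher one, at 2291, 2162 and 2091 against 673, 691 and 827 (log2 difference 1.58, SE 0.10, limma adjusted p = 1.49e-07).

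Genes of C-low threshold mechanoreceptors were lower for 9 of 10 and higher for 0 (median -1.78), or 5 and 2 with neuronal scaling, among them the membrane protein Tmem233 (-3.61). With any 1 lesion library left out, 9 were tested and 7 or 8 lower. Large fibre and proprioceptor genes were lower for 21 of 25 and higher for 2 (median -1.16), or 9 and 6 with neuronal scaling. The transcription factor Etv1 was at 233, 327 and 291 against 1434, 1558 and 1333 (log2 difference -2.35, SE 0.13, limma adjusted p = 5.97e-08), the nuclear receptor Esrrg differed by -2.74 and the secreted protein Spp1 was higher by 1.10. Peptidergic genes had 10 of 15 lower and 3 higher (median -0.56), or 5 lower and 8 higher with neuronal scaling. On that scale 71.6% of all genes were higher and 7.88% lower. The summed value of peptidergic genes was higher in culture, at 18265 to 25085 against 13411 to 15581, and it includes Adcyap1. Without lesion replicate 2, 13 peptidergic genes were tested and 6 were lower. Trpv1, the capsaicin receptor, was at 109, 146 and 180.0 against 447, 518 and 668 (log2 difference -1.91, SE 0.20, limma adjusted p = 6.29e-06) and the somatostatin receptor Sstr2 differed by -4.65. Calca, which encodes CGRP and was picked after its values were seen, was at 6001, 4793 and 6592 against 4417, 5735 and 4899, with overlapping groups (log2 difference 0.20, SE 0.13, limma adjusted p = 0.182). It was called higher without 36 h replicate 2 (0.33) and with neuronal scaling (1.20).

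Most ion channel and release genes were lower in culture. Voltage-gated sodium channel genes were lower for 12 of 14 and higher for 0 (median -1.19), and with neuronal scaling 4 were lower and 4 higher. Scn11a, the nociceptor channel Nav1.9, was at 1011, 952 and 997 against 3297, 5524 and 4342 (log2 difference -2.12, SE 0.15, limma adjusted p = 3.40e-07), with 9144 at 6 h and 5153 after sham surgery. Scn1a (-1.95) and the subunit Scn2b (-2.19) were lower. Potassium channel genes were lower for 38 of 50 and higher for 3 (median -1.22), or 22 and 12 with neuronal scaling. The channel-binding proteins Kcnip1 (-3.13) and Kcnip2 (-2.59) were lower and the calcium-gated channel Kcnn4 higher (1.58). Synaptic vesicle and release genes were lower for 39 of 53 and higher for 3 (median -0.85), or 13 and 20 with neuronal scaling. On that scale 71.6% of all genes were higher and 7.88% lower. The scaled medians were -0.20 for sodium channel, -0.23 for potassium channel and 0.14 for release genes, against 0.96 for all genes. Rab3c, a vesicle GTPase, was at 2468, 2608 and 2899 against 11356, 10963 and 9829 (log2 difference -2.01, SE 0.09, limma adjusted p = 1.96e-08), while the vesicle protein Syt4 (1.28) and the glutamate transporter Slc17a6 (1.18) were higher.

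The series is titled for a calcium channel subunit, and 12 of 19 voltage-gated calcium channel genes tested were lower and 1 higher (median -0.88), or 4 lower and 7 higher with neuronal scaling. With any 1 lesion library left out, 17 were tested and 9 or 10 lower. On the neuronal scale the list median was 0.11, against 0.96 for all genes. Cacna2d2, the alpha2delta2 subunit (chr9:107399612-107529343 in the GENCODE annotation of mm10), was at 56.1, 51.2 and 84.0 at 36 h against 204, 256 and 206 after lesion (log2 difference -1.81, SE 0.22, limma adjusted p = 2.14e-05). Its mean was 215 at 6 h and 324 after sham surgery, so the level at 36 h lay below the 3 other groups. Cacna2d1, the alpha2delta1 subunit (chr5:15934691-16374511), was at 6017, 4557 and 5392 against 13552, 9572 and 11007 (log2 difference -1.09, SE 0.13, limma adjusted p = 2.35e-05). Its difference shrank to -0.10 with neuronal scaling and was then not called, and Cacna2d2 kept -0.82. Cacna1i, a T-type channel (-4.02), and the subunit Cacng5 (-2.88) were lower, and Cacna1a, the P/Q-type channel, was higher (0.74).

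Of 56 growth cone and cytoskeleton genes, 17 were higher, a share near that of all genes, and 27 were lower (median -0.20). With neuronal scaling 36 were higher and 14 lower, where 71.6% of all genes were higher. Among the higher were the filamin genes Flna and Flnc, which cross-link actin, with Flna at 7003, 7142 and 6172 against 2042, 1743 and 1932 (log2 difference 1.83, SE 0.09, limma adjusted p = 4.15e-08) and Flnc at a difference of 2.02. The tubulins Tuba4a (-2.45) and Tubb4a (-2.33), the microtubule regulator Stmn2 (-1.76) and the myosin light chain Myl9 (-2.97) were lower. Among intermediate filaments Nes, the nestin of progenitors, glia and activated cells, was at 21328, 19999.8 and 18866 against 1092, 1114 and 875 (log2 difference 4.29, SE 0.10, limma adjusted p = 2.36e-10). Vim, found in many non-neuronal and growing cells, differed by 1.87, while the neurofilament gene Nefh was lower (-1.50).

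Integrins, the receptors for laminin and other matrix, were higher for 13 of 22 and lower for 3 (median 0.52). With neuronal scaling 15 were higher and 2 lower, shares near the 71.6% and 7.88% of all genes on that scale. Itgav was at 4561, 3841 and 4028 against 793, 777 and 659.7 (log2 difference 2.48, SE 0.10, limma adjusted p = 1.02e-08), and Itga5 (2.40) and Itga2 (2.45) were higher. Matrix proteins had 23 of 46 higher and 15 lower, the lower share near the 31.4% of all genes. With neuronal scaling 33 were higher, a share near that of all genes, and 8 were lower. Tnc, tenascin C, was at 2985, 3152 and 3483 against 68.9, 26.7 and 75.2 (log2 difference 5.92, SE 0.33, limma adjusted p = 8.09e-07), and Postn (3.21) and Col18a1 (2.89) were higher, whereas the proteoglycan Lum (-3.64) and elastin Eln (-3.73) were lower. The receptor kinase Axl, a target of the YAP pathway, was higher (2.80). Cholesterol biosynthesis genes were lower for 18 of 28 and higher for 2 (median -0.44). With neuronal scaling 17 were higher and 4 lower, and their median of 0.55 stayed below the 0.96 of all genes. Hsd17b7 (-1.99) and Acat2 (-1.75) were lower and the regulator Srebf1 higher (1.03). Clock genes had 2 of 15 higher, 7 lower and 6 not called (median -0.02), or 11 higher and 2 lower with neuronal scaling. The 11 are a share near the 71.6% of all genes higher on that scale. The clock activator Arntl was higher (2.01). The clock output factors Dbp (-2.40) and Hlf (-3.09) were lower in culture, and the hour of collection is not given. The higher share of glycolysis genes, 7 of 25 with 11 lower, was near the 29.4% of all genes. Lysosome and proton pump genes had 15 of 31 higher and 8 lower, glycolysis genes the counts just given, and Notch pathway genes 7 of 15 higher and 5 lower. With neuronal scaling these became 29 and 1, 20 and 2, and 11 and 2, where 71.6% of all genes were higher and 7.88% lower. The higher share of Notch pathway genes was near that of all genes.

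The pair of 6 h culture and sham surgery shows which of these differences were also present early in culture and without lesion. In that pair, of 14566 genes tested, 4019 were higher in culture (27.6%) and 4474 lower (30.7%), 58.3% in all. Of the 4207 genes higher at 36 h and tested there, 2413 (57.4%) were also higher at 6 h than after sham surgery, 327 (7.77%) were lower and 1467 (34.9%) were not called. The shared genes made up 60.0% of those higher at 6 h. Of the 4532 genes lower at 36 h, 2542 (56.1%) were also lower in the early pair, 388 (8.56%) were higher and 1602 (35.3%) were not called, and the shared genes were 56.8% of those lower at 6 h. Cyp1a1 (8.88 and 8.62), Slc7a11 (3.94 and 3.89), Tnc (5.92 and 5.47), Timp1 (4.67 and 4.71) and Tubb4a (-2.33 and -2.38) had like differences in the later and the early pair, and the change between pairs was not called for any of these 5.

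A test of the difference between the 2 pairs, over 15224 genes, called 5849 (38.4%), with 2497 more positive in the later pair (16.4%) and 3352 more negative (22.0%). The pairs differ at once in culture time and in lesion against sham surgery. A call therefore does not say whether the cultures or the operated animals changed. Nonpeptidergic genes had a median of 0.03 in the early pair against -2.35, and the test called 21 of 25 more negative and 1 more positive. Sodium channel genes had -0.02 against -1.19 (11 of 14 more negative) and synaptic vesicle genes 0.02 against -0.85 (35 of 53 more negative). Injury-induced growth genes had a median of 1.21 in the early pair, and 24 of 45 were more negative and 2 more positive. Atf3 was part of this, with 4.19 in the early pair and -0.14 in the later (log2 difference -4.33, SE 0.17, limma adjusted p = 2.39e-11 for the change between pairs). In culture Atf3 was at 10686, 10176 and 9598 at 6 h and at 8009.6, 7860.1 and 8823 at 36 h. In the animal it was at 524, 566 and 580 after sham surgery and at 11051, 7089 and 9482 after lesion. More positive were 42 of 76 ribosomal protein genes, 14 of 22 unfolded protein response genes, 15 of 22 endothelial genes and 19 of 46 cell cycle genes. The integrated stress response list had medians of 1.18 and 1.10, with 7 of 34 more positive and 8 more negative.

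**Figure D5:**
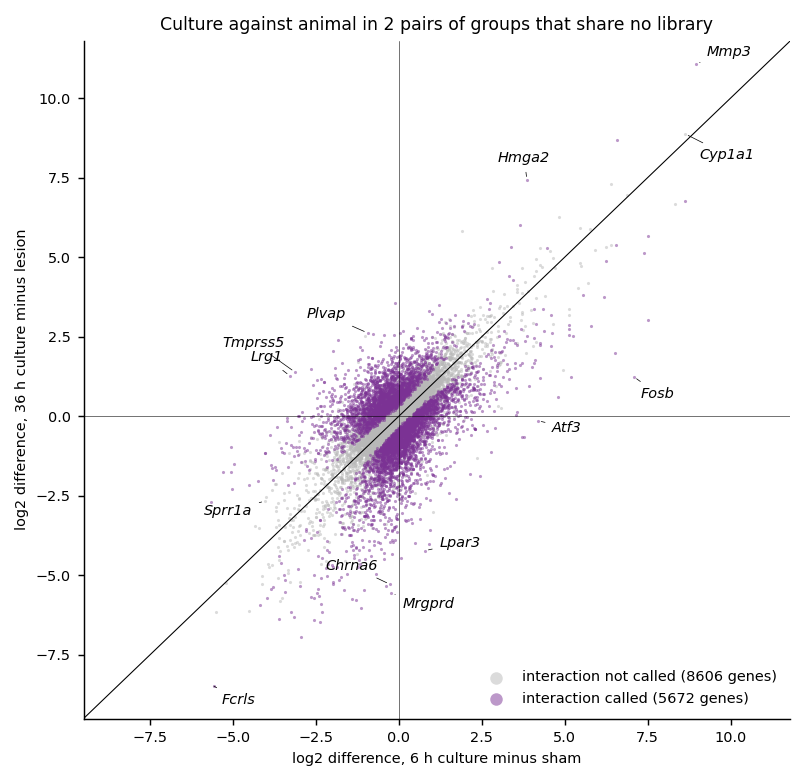
Log2 difference of each gene tested in both pairs, 6 h culture minus sham (x axis) and 36 h culture minus lesion (y axis), with the line of equal differences. Purple points are genes for which the change between pairs was called, and Mrgprd, Chrna6 and Lpar3 lie low on the y axis near 0 on the x axis while Atf3 and Fosb lie to the right.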

How the data were processed

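RNA-seq was measured in 24 libraries from mouse dorsal root ganglia. Before deposit, the authors divided each library's reads per gene by 1 factor, and the table's values are a normalized signal of that kind, as seen from the values: 100% of 339603 values of up to 1000 reads were whole multiples of a library's smallest step, within 0.1 read. The submitters' processing notes name TopHat and the mm10 build. For the annotation, the counting tool, the TopHat version and how the factors were set, the sources used here state nothing.

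All columns were mapped to a sample. Groups came from the sample labels: time after plating for cultures, developmental stage for embryos and titles for operated animals. Genes with a value of 10 or more in at least 3 libraries of a comparison were tested on log2(value + 1) with limma 3.58.1 in R 4.3.3 (trend and robust variance, Benjamini-Hochberg threshold 0.05). The method was also run on simulated reads with changes planted in a small share of genes. That run does not cover data in which 60.8% of genes are called. The fit of 36 h culture minus lesion used those 6 libraries, and the change between pairs used 12. edgeR 4.0.16 and DESeq2 1.42.0 on the recovered whole reads, other pseudocounts (0.5 and 8), other minimums (none and 50), neuronal scaling and leaving out each library were alternatives. Ratios from reads and floors of 3 reads cover counting error only.

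The members and gene lists were chosen with earlier results of these data known. Named genes were Cacna2d1, Cacna2d2 and Atf3, defining cell type markers, the 12 called genes of largest difference in each direction whose groups did not overlap and whose higher group mean was at least 100 (uncharacterised and small RNA genes left out), up to 3 per list and direction with a higher group mean of at least 50, and the 6 largest changes between pairs in each direction. Jun, Sox11, Stat3, Calca, Mki67, Ccl2, Calr and Ifit3 were named after their values were seen. Promoter sequences are from RefSeq on GRCm38.p6.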

Additional observations from a re-analysis of the deposited data

Results flagged for a closer look

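The culture difference at 36 h against lesion and the culture difference at 6 h against sham surgery were set against each other in 1 limma fit, and 2497 genes were more positive and 3352 more negative in the later pair. Named below are the 6 genes with the largest change in each direction among those called, and each mean is over 3 libraries.

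Among the more negative, Fosb, an immediate early transcription factor, had a mean of 2083 at 6 h against 15.0 after sham surgery, and 43.9 at 36 h against 17.5 after lesion, a log2 change of -5.83. Genes of receptors and a channel made up the other 5. Mrgprd changed by -5.35 and Mrgpra2b, a related receptor with similar family copies, by -4.96. Chrna6, a nicotinic receptor subunit, had means of 828 at 6 h, 991 after sham surgery, 470.0 after lesion and 10.9 at 36 h, a change of -5.01. The lysophosphatidic acid receptor Lpar3 also changed by -5.01, and the T-type calcium channel gene Cacna1i by -4.93.

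Among the more positive, Psrc1, a spindle protein, had means of 109 at 36 h against 8.75 after lesion, and 2.98 at 6 h against 8.12 after sham surgery, a change of 5.02. The replication gene Dtl changed by 3.85. Lrg1, a secreted glycoprotein, had means of 6.65 at 6 h and 143 at 36 h, against 72.5 after sham surgery and 57.7 after lesion, a change of 4.55. The membrane protease Tmprss5 changed by 4.52 and the glucuronosyltransferase Ugt1a6b, which shares exons with its family, by 4.03. Ereg changed by 3.80, with means of 122 at 36 h and 11.6 at 6 h and 0 in all 6 operated libraries, and this change was not called with edgeR or DESeq2.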

How the results depend on the processing

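Scaling each library to the general neuron genes gave, for 36 h culture minus lesion, 10548 higher and 1161 lower genes, for 6 h culture minus sham 6601 and 2174, and for the change between pairs 7345 and 1077. It turned the direction of 3 named genes, Atf3 (0.85), Stat3 (0.93) and Mki67 (0.89), none of which was called on the values as deposited, and ended the calls of Cacna2d1 (-0.10), S100a8 (-3.41) and Plau (-0.13). A difference of at least 2-fold left 3860 genes for 36 h culture minus lesion, 1698 higher and 2162 lower. Over 159 named genes and the other alternatives, 2289 of 2291 values kept their direction and their side of the threshold. The exceptions were Atf3 without lesion replicate 2 and Calca without 36 h replicate 2, both then called. Genes that fell below the minimum in an alternative, such as Mmp3 or Fcrls without a library of their higher group, have no value there. The 2291 do not include such cases, so they do not show that every named gene held. Of 12 genes named for the change between pairs, Ereg was not called with edgeR (3.30) or DESeq2 (3.05), where the change was computed on reads. A term for the later number series of the operated libraries (lesion and sham replicate 3), chosen after seeing the data, gave 2297 higher and 3168 lower for the change between pairs, and the 12 genes stayed called. No paired analysis was possible because the labels give each library a number of its own, and the replicate numbers used here follow accession order and pair nothing. Depth limits genes near 10 normalized units, where 1 read is worth 0.578 to 1.67 units in these 6 libraries.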
